A study of Mus musculus with 32 samples.

Results

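This report describes 10 claudin genes, Cldn1, Cldn3, Cldn4, Cldn5, Cldn6, Cldn7, Cldn9, Cldn10, Cldn11 and Cldn12, of 23154 genes in the tables. They were chosen by name from the claudin family, which has 22 further rows in the same tables. The rule used no measured values, but the members were chosen with earlier results of these data known. The study sequenced 1916 single cells picked by mouth pipette from 8 dissected organs (heart, somite, skin, lung, liver, intestine, hindbrain and forebrain) of 7 wild-type mouse embryos of the C57BL/6J strain. Of these embryos 3 were at E9.5, and E10.5 and E11.5 each gave 2. No embryo carried a transgene or received a treatment, and the groups compared are organs and embryonic days. By its label, E9.5 embryo 2 was the single female. By the protocol text of their labels, the libraries of E9.5 embryos 1 and 2 were read on a HiSeq 2500. The remaining embryos are taken here as HiSeq 4000, the only sequencer that the paper's methods name. Median depths of these 2 sets were 579613.5 and 241898 UMIs per kept cell. Day is thus mixed with depth and with the sequencer as labelled. The organs of E9.5 embryo 3 were pooled into 2 samples and held no brain cells, and the E10.5 and E11.5 samples each held both embryos of the stage. The hindbrain is labelled metencephalon at E9.5.

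The study kept 1819 cells and gave 1815 of them a major group, namely 307 epithelial, 875 mesoderm-derived, 384 neuronal and 249 hematopoietic cells. In 4 organs it also named 289 epithelial (Epi) cells, 110 from intestine, 48 from liver, 52 from lung and 79 from skin, and 352 mesenchymal (Mes) cells. These names came from clustering the same cells, so a difference between named groups is given here as a description without a test. Organ and day came from dissection and staging and were tested. Depth ran from 20326 to 2524348 unique molecular identifiers (UMIs) per kept cell, with a median of 306642, and medians per embryo lay between 192177 in E11.5 embryo 1 and 928653 in E9.5 embryo 2. The replicate was the embryo. Unless another scale is named, a level is the mean over the cells of an embryo of log2(TPM/10 + 1), where TPM is the study's name for UMIs per 1000000 UMIs of the cell, and only means over at least 3 cells were used. Because each molecule was counted once at its 3′ end, gene length does not enter these levels. A cell was said to express a gene at a level of 1 or more. The defining markers fitted the names: the summed level of 6 epithelial markers (Epcam, Cdh1, Krt8, Krt18, Esrp1 and Spint2) lay between 25.50 and 28.31 in epithelial cells and at 6.72 or less in the other 3 major groups, and none of them was at 0.

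Claudins are membrane proteins with several transmembrane segments that join neighbouring epithelial or endothelial cells at tight junctions, where strands of claudins seal the space between cells. Some members tighten this seal, others form pores for ions, and the set of claudins a cell makes sets what passes between cells. Tight junctions also carry occludin, junctional adhesion molecules and cytoplasmic scaffold proteins such as ZO-1 (Tjp1), and grainyhead-like factors such as Grhl2 are known activators of claudin genes in epithelia. Of the members described here, Cldn3, Cldn4, Cldn6 and Cldn7 are found in many developing epithelia, Cldn5 is the claudin of endothelium and the blood-brain barrier, Cldn1 is needed for the barrier of the epidermis, Cldn11 forms the tight junctions of myelin and of Sertoli cells, Cldn10 forms ion pores, and Cldn12 lacks the PDZ-binding end that links other claudins to scaffolds.

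Among the members, 2 pairs are neighbours in the genome (GRCm38, which is mm10, with GENCODE genes). Cldn6 (ENSMUSG00000023906, chr17:23679249-23682446, plus strand) and Cldn9 (ENSMUSG00000066720, chr17:23682584-23684026, minus strand) face each other with their 3′ ends, 137 bp apart. Cldn4 (ENSMUSG00000047501, chr5:134945119-134946934, minus strand) and Cldn3 (ENSMUSG00000070473, chr5:134986214-134987472, plus strand) lie 39279 bp apart on opposite strands, and the 3′ end of Cldn3 is overlapped by the antisense gene Wbscr25. Cldn7 (ENSMUSG00000018569, chr11:69964779-69967885, plus strand), Cldn11 (ENSMUSG00000037625, chr3:31149920-31164324, plus strand), Cldn10 (ENSMUSG00000022132, chr14:118787908-118875489, plus strand), Cldn5 (ENSMUSG00000041378, chr16:18776847-18778262, plus strand), Cldn1 (ENSMUSG00000022512, chr16:26356642-26371841, minus strand) and Cldn12 (ENSMUSG00000046798, chr5:5489537-5514958, minus strand) have no member nearby. Cldn3, Cldn4, Cldn5 and Cldn9 are genes of 1 exon. No stretch of 50 bases in the last 1000 bases of any member occurs unchanged in a transcript of another gene. Copies with mismatches were not searched for. The use of strand in the counting is not given in the sources used here, and a count of Cldn3 could hold reads of Wbscr25.

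The promoters of the 5 claudins that set the epithelial groups apart in the comparisons described here are printed because 3 of them hold the same E-box and 2 do not. Each line gives the 150 bases before a transcription start of RefSeq (GRCm38.p6), 5′ to 3′, and capitals mark CAGGTG or its reverse complement CACCTG, an E-box read by zinc finger repressors of epithelial genes such as Snai1 and Zeb1. RefSeq promoters were matched for 9 of the 10 members, without Cldn9.
Cldn6, chr17:23679215-23679364, plus strand: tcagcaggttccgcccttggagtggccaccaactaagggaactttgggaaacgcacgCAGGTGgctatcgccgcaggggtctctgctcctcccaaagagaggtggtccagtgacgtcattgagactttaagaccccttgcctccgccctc
Cldn7, chr11:69965271-69965420, plus strand: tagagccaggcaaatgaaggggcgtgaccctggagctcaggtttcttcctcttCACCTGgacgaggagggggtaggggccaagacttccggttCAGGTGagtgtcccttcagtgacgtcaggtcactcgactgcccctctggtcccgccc
Cldn4, chr5:134946935-134947084, minus strand: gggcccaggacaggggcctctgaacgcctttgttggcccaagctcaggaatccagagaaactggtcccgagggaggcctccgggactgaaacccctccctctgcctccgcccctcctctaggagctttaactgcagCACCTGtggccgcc
Cldn3, chr5:134986064-134986213, plus strand: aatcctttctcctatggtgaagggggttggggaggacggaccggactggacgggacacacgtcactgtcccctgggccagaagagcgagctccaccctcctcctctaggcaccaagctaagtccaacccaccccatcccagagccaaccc
Cldn11, chr3:31149770-31149919, plus strand: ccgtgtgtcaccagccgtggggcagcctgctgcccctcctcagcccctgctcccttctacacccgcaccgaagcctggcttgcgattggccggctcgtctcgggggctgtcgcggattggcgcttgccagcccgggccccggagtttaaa
The E-box stands 93 bases before the RefSeq start of Cldn6 and 14 bases before that of Cldn4. In Cldn7 it stands 97 and 57 bases before the start that is shown. The GENCODE start of Cldn6 (23679249) falls inside the stretch shown, and the E-box lies within the GENCODE gene. The stretch of Cldn7 that holds the E-box also lies within its GENCODE gene. The E-box is not in the stretches shown for Cldn3 and Cldn11, nor in the window of the more upstream start of Cldn7. Of 32851 promoter windows of the annotation, 17.2% hold these letters on either strand in the 250 bases before the start and 10.6% in the 150 bases nearest to it, and of the 13 windows of the members 3 hold them in the 250 bases. The same 250 bases were also searched for AACNNGTT (N is any base) and GGGCGG. AACNNGTT was in 1 of the 13 windows, that of Cldn5, beside 3.64% of all windows. GGGCGG was in 9 of the 13, beside 32.7% of all windows. The presence of such letters describes the sequence and names no bound factor.

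The claudins Cldn6, Cldn7, Cldn3 and Cldn4 set the epithelial cells apart from the other 3 major groups in every embryo. Cldn6 was the highest, with a level of 5.50 ± 0.59 (SD, n = 7 embryos) in epithelial cells. Its lowest embryo stood at 4.62, its median at 5.42 and its highest at 6.39, whereas no embryo of another group passed 0.64. Cldn7 lay at 4.22 ± 0.37, between 3.57 and 4.61 with a median of 4.35, against at most 0.45 elsewhere. Both genes were thus expressed in the epithelial cells of each embryo far above the range of the other groups. Cldn3 followed at 2.61 ± 0.49 (1.82 to 3.24, median 2.80, at most 0.40 elsewhere). Cldn4 stood at 1.84 ± 0.43 (1.31 to 2.55, median 1.74, at most 0.10 elsewhere). Of all 17432 genes described in these groups, 0.700% lay above each other group in every embryo by at least 1. The order Cldn6, Cldn7, Cldn3, Cldn4 had no overlap between Cldn6 and Cldn7, or between Cldn7 and Cldn3, while the ranges of Cldn3 and Cldn4 overlapped.

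None of the other 6 members set 1 major group above the others in every embryo by at least 1. Cldn12 was spread evenly over the groups that are not hematopoietic, with 0.93 ± 0.22 in epithelial, 0.77 ± 0.29 in neuronal (n = 6) and 0.71 ± 0.21 in mesoderm-derived cells. In hematopoietic cells it stood at 0.12 ± 0.09, and the highest embryo there (0.24) lay below every embryo of the other groups (0.28 or more). Cldn11 (0.90 ± 0.41) and Cldn9 (0.61 ± 0.37) were held by part of the epithelial cells only, as the organs show. Their ranges reached down to 0.33 and 0.19, against at most 0.25 and 0.21 in the other groups. Cldn11 was thus higher in the epithelial cells of every embryo, with a difference of 0.74 from the next group, while Cldn9 overlapped. Cldn10 (0.20 ± 0.29) and Cldn1 (0.17 ± 0.08) were low on average in epithelial cells. Cldn5 was lowest there (0.05 ± 0.07) and had its highest mean in neuronal cells (0.23 ± 0.22, n = 6), next to 0.10 ± 0.09 in mesoderm-derived cells.

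**Figure D1:**
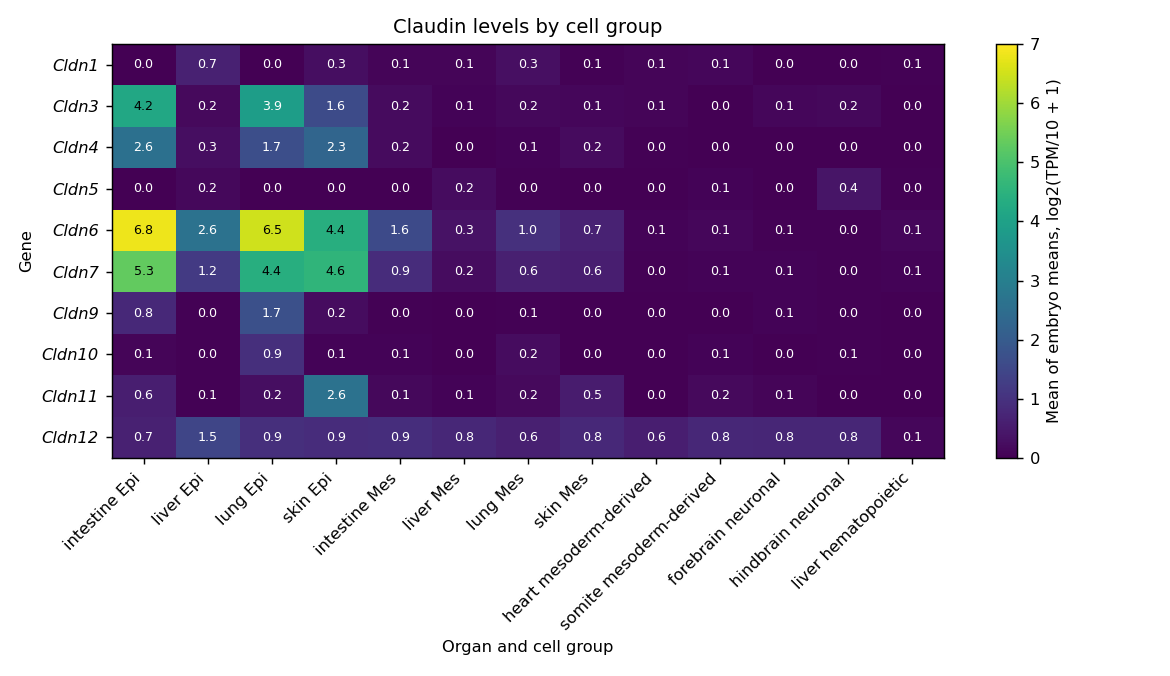
Levels of the 10 claudins (rows) in 13 sets of cells (columns, organ and cell group); each cell prints the mean of the embryo means of log2(TPM/10 + 1), and colour runs from 0 to 7 on the same scale. The bright blocks are Cldn6 (6.83 in intestine Epi, 6.50 in lung Epi), Cldn7, Cldn3 and Cldn4 in the Epi sets, with liver Epi paler at 2.65 for Cldn6.

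The epithelial claudins also marked the Epi cells against the Mes cells of the same organ, except in liver. In intestine, 4 of 9 members expressed there lay higher in the Epi cells of every embryo without overlap and by at least 1, beside 1.51% of all genes. Their differences in level were 5.24 for Cldn6, 4.43 for Cldn7, 4.01 for Cldn3 and 2.39 for Cldn4. In lung, 5 of 9 members did so, beside 1.38% of all genes: Cldn6 (5.54), Cldn7 (3.78), Cldn3 (3.75), Cldn9 (1.67) and Cldn4 (1.61). In skin the 5 of 8 members were Cldn7 (3.98), Cldn6 (3.71), Cldn11 (2.12), Cldn4 (2.09) and Cldn3 (1.48), beside 1.99% of all genes. In liver none of 8 members did, beside 3.69% of all genes, and liver Mes cells came from the 3 embryos at E9.5 only. Cldn6 in liver was higher in Epi than in Mes cells of each of these 3 embryos, with a difference of the means of 2.31, but liver Epi cells of later embryos fell to 0.18, below the highest liver Mes embryo (0.47). Among Mes cells, those of intestine held the most Cldn6 (1.58 ± 0.30, n = 7) and Cldn7 (0.88 ± 0.53). The summed epithelial markers in Mes cells stood between 6.44 and 15.11 in intestine, 5.30 and 9.20 in liver, 4.26 and 7.57 in skin and 3.38 and 6.05 in lung. They did not follow the order of Cldn6, which was lowest in liver Mes cells (0.34 ± 0.11, n = 3) and higher in lung (0.97 ± 0.75, n = 6) and skin (0.66 ± 0.34, n = 6). Within intestine the 3 E9.5 embryos had more of these markers (11.57 to 15.11) than the later ones (6.44 to 9.20), while their Cldn6 stood at 1.68, 1.26 and 1.17, against 1.46 to 2.02 later. The part of these markers in the Mes levels of Cldn6 and Cldn7 was not tested.

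Within Epi cells, the organs differed in which claudins they held and in how much. Each organ was compared with the mean of the other 3 over embryos. Of 40 results for the 10 members, 14 were called (adjusted p under 0.05 and a difference of at least 1), 8 higher and 6 lower, beside 3.78% of the 62464 results over all genes. The called results belong to 6 members. Intestine and lung Epi cells were high in Cldn3 and Cldn6, liver Epi cells were low in 5 members, and Cldn11 was a claudin of skin. The 4 comparisons share their embryos and each organ serves as part of the reference of the others, so they are not independent. Every adjusted p in the organ, day and brain comparisons is from limma with Benjamini-Hochberg adjustment over all genes, unless edgeR is named.

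Cldn6 reached 6.83 ± 0.30 (SD, n = 7) in intestine, with 6.52, 6.75 and 7.24 as lowest, median and highest embryo. It stood at 6.50 ± 0.49 (n = 6; 5.93, 6.56 and 7.02) in lung, at 4.38 ± 1.39 (n = 6; 2.58, 4.58 and 6.37) in skin and at 2.65 ± 2.15 (n = 6; 0.18, 2.37 and 5.55) in liver. Intestine and lung overlapped, skin reached into the range of lung, and liver lay below all embryos of intestine and lung. Against the other organs, Cldn6 was higher in intestine by 2.32 (SE 0.42, adjusted p = 6.86e-05, 7 of 7 embryos above the mean of the others) and in lung by 1.89 (SE 0.44, adjusted p = 0.00303, 6 of 6). It was lower in liver (-3.25, SE 0.44, adjusted p = 9.48e-08, 6 of 6). The call in lung was lost in edgeR on summed UMIs with TMM (1.33, adjusted p = 0.0754) and with means over at least 5 cells (1.40, adjusted p = 0.101).

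Cldn7 was more even among the organs outside the liver. Its lowest, median and highest embryos were 4.76, 5.18 and 5.92 in intestine (5.31 ± 0.45), 3.58, 4.96 and 5.11 in skin (4.58 ± 0.71) and 3.92, 4.49 and 4.77 in lung (4.40 ± 0.37). In liver they were 0.31, 0.56 and 2.85 (1.19 ± 1.17), so that no liver embryo overlapped with any embryo of another organ. The differences were 1.92 in intestine (SE 0.27, adjusted p = 1.06e-06), where 1.26% of all genes were called higher, and -3.57 in liver (SE 0.29, adjusted p = 5.79e-14). Skin was higher by 0.94 (SE 0.29, adjusted p = 0.0183, 5 of 6), under the size asked for. Without E11.5 embryo 1 (1.14), E11.5 embryo 2 (1.12) or E9.5 embryo 1 (1.03) the skin difference passed it.

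Cldn3 separated intestine and lung from skin and liver more sharply. It stood at 4.21 ± 0.66 in intestine (3.13, 4.06 and 5.13) and 3.91 ± 0.53 in lung (3.10, 3.88 and 4.77), which overlapped. Skin held 1.60 ± 0.87 (0.57, 1.75 and 2.79) and liver 0.17 ± 0.25 (0.00, 0.05 and 0.65). Every embryo of intestine and lung was above every embryo of skin and liver. Cldn3 was higher in intestine by 2.32 (SE 0.21, adjusted p = 8.78e-12) and in lung by 1.92 (SE 0.22, adjusted p = 8.08e-09). It was lower in liver (-3.07, SE 0.22, adjusted p = 8.17e-16) and in skin (-1.17, SE 0.22, adjusted p = 7.93e-05, 5 of 6 embryos). The skin difference fell under 1 without E11.5 embryo 1 (-0.95) or embryo 2 (-0.93) and was -0.25 (adjusted p = 0.897) in edgeR on summed UMIs.

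Cldn4, the neighbour of Cldn3, had another order, with intestine at 2.59 ± 1.05 (1.498, 2.16 and 4.19), skin at 2.29 ± 0.68 (1.38, 2.29 and 3.18) and lung at 1.67 ± 0.71 (0.85, 1.59 and 2.59). These 3 organs overlapped with each other. Liver stood at 0.27 ± 0.35 (0.00, 0.18 and 0.91). Cldn4 was higher in intestine by 1.18 (SE 0.24, adjusted p = 0.000536) and lower in liver (-1.91, SE 0.26, adjusted p = 8.68e-08). The difference in intestine was 0.95 without E9.5 embryo 1 and 0.81 in the HiSeq 4000 embryos alone, which is under the size asked for.

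**Figure D2:**
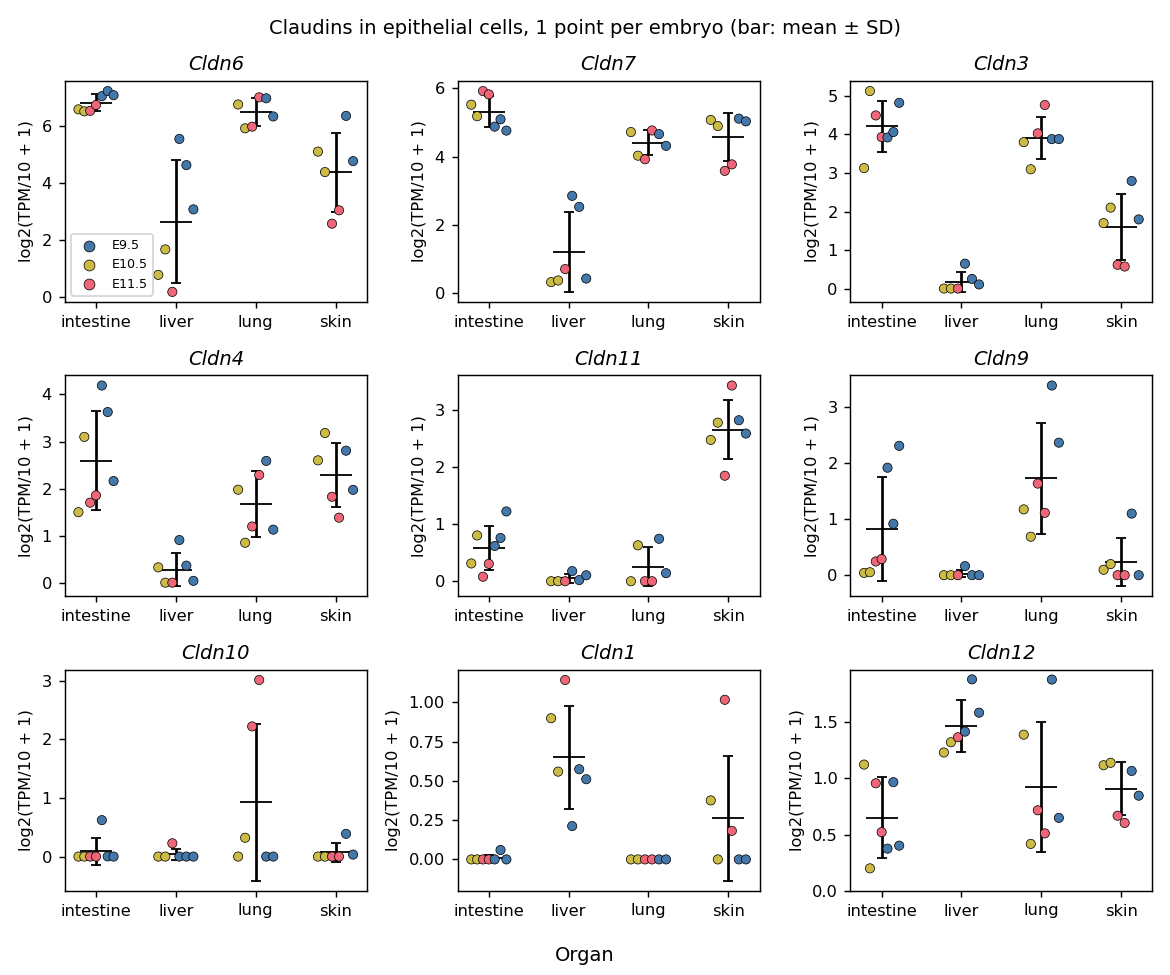
Levels of 9 claudins in the Epi cells of intestine, liver, lung and skin, 1 point per embryo coloured by day, with the mean and SD as bars and log2(TPM/10 + 1) on each vertical axis (the axes differ between genes). Cldn7 in liver (0.31 to 2.85) and Cldn11 in skin (1.84 to 3.42) stand clear of all other organs, and Cldn10 is high only in the 2 lung embryos at E11.5 (2.22 and 3.02).

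The remaining members were lower on average. Cldn11 was high in skin Epi cells, with 1.84, 2.68 and 3.42 as lowest, median and highest embryo (2.65 ± 0.51, n = 6). No embryo of another organ passed 1.22, which was an intestine embryo. The difference of skin from the other organs was 2.36 (SE 0.16, adjusted p = 4.26e-16), beside 4.28% of all genes called in either direction in skin, and it was the strongest call among the members. Cldn11 was lower in liver (-1.11, SE 0.16, adjusted p = 5.19e-07) and lay at -0.84 (SE 0.16, adjusted p = 0.000259) in lung, under the size asked for. At a depth made equal by thinning each cell to 100000 UMIs, 75.4% of 65 skin Epi cells held a Cldn11 UMI, against 19.2% in intestine, 10.9% in lung, 8.51% in liver and 0.870% of hematopoietic cells.

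Cldn9 was highest in lung Epi cells (1.72 ± 0.99, n = 6; 0.68, 1.40 and 3.37), followed by intestine (0.82 ± 0.93; 0.04, 0.29 and 2.30), skin (0.23 ± 0.43; 0.00, 0.05 and 1.10) and liver (0.03 ± 0.07). Lung, intestine and skin overlapped. The difference of lung was 1.36 (SE 0.24, adjusted p = 5.22e-05, 6 of 6 embryos), and 0.813% of all genes were called higher in lung. Cldn9 shares its 3′ neighbourhood with Cldn6, which was far more abundant. Summed over embryos, Cldn9 UMIs amounted to 6.30% of Cldn6 UMIs in lung, 2.67% in skin, 1.86% in intestine and 0.170% in liver. All 34 lung cells with a Cldn9 UMI also held Cldn6, as did all 36 of intestine, 6 of skin and 1 of liver, and no cell held more Cldn9 than Cldn6. A single cell held 67.4% of the 267 Cldn9 UMIs of skin and another 27.3% of the 902 of lung. Per embryo, the share of Cldn9 in the claudin UMIs was 0.952% to 7.53% in lung, 0.0286% to 2.43% in intestine and 0% to 2.15% in skin, which overlap. Whether reads of Cldn6 were assigned to Cldn9 was not tested.

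Cldn1 and Cldn12 stood higher in liver Epi cells, both under the size asked for on the main scale. On log2(TPM + 1) both were called (1.60, adjusted p = 4.05e-07, and 1.69, adjusted p = 0.00161). In edgeR on summed UMIs with TMM, Cldn1 was called (5.51, adjusted p = 0.000747) but not Cldn12. The same edgeR fit called Cldn5 higher in liver (7.43, adjusted p = 4.50e-06). Its level there was 0.16 ± 0.27, and 1 cell held 94.5% of its 944 UMIs. Cldn1 stood at 0.65 ± 0.33 (0.21, 0.57 and 1.14) in liver, 0.26 ± 0.40 in skin and 0.01 ± 0.02 in intestine. In the 52 lung Epi cells not 1 Cldn1 UMI was counted, which allows up to 0.199 UMIs per 1000000 UMIs. The liver difference was 0.56 (SE 0.10, adjusted p = 1.91e-05, 6 of 6). Cldn12 stood at 1.46 ± 0.23 in liver (1.23, 1.39 and 1.88), 0.93 ± 0.58 in lung, 0.90 ± 0.23 in skin and 0.65 ± 0.36 in intestine, and liver was higher by 0.64 (SE 0.18, adjusted p = 0.00783, 6 of 6). Hence the claudin pool of liver Epi cells was made up differently. Of the UMIs of all claudins in the table, Cldn12 held between 3.37% and 35.9% in the 6 liver embryos. Cldn1 held 14.3% ± 16.1 there (SD, n = 6) and Cldn5 7.14% ± 17.2, with 42.2% in the highest embryo. In intestine (n = 7) Cldn12 held 0.454% ± 0.299, Cldn1 0.00498% ± 0.0132 and Cldn5 0.00942% ± 0.0249. Cldn6 held 41.7% ± 26.3 in liver, 56.1% ± 5.10 in intestine, 58.5% ± 5.49 in lung and between 20.1% and 51.2% in skin, where Cldn7 held 34.9% ± 7.12 and Cldn11 14.5% ± 7.56.

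For liver the 5 members called lower were Cldn3, Cldn4, Cldn6, Cldn7 and Cldn11, beside 2.41% of all genes called lower there. The median difference of the 10 members in liver was -1.0, with 0.06 in intestine, 0.34 in lung and -0.09 in skin, while the medians over all genes lay between -0.02 and 0.00. Other markers moved with the liver result. The summed epithelial markers were 15.98 to 22.34 in liver Epi cells and 24.14 to 33.03 in the Epi cells of the other organs, with none of the 6 at 0. Hepatoblast markers (Afp, Alb, Apoa2 and Ttr) summed to 27.16 to 36.92 in liver and 0.04 to 9.70 elsewhere. Hematopoietic markers in liver Epi cells ranged from 1.18 to 9.97. Their part in the claudin levels was not tested. Median depth was highest in the liver set (657092 UMIs per cell).

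Over the 3 days, the called slopes were those of Cldn6, which fell in liver and skin, and of Cldn10, which rose in lung. Slopes on embryonic day gave 3 called results of 40 (adjusted p under 0.05 and a slope of at least 0.5 per day), beside 1.22% of the 57656 results over all genes. In liver Epi cells Cldn6 stood at 5.55, 4.63 and 3.08 in the 3 embryos at E9.5, 0.78 and 1.67 at E10.5, and 0.18 in the 1 embryo with enough cells at E11.5. Every E9.5 embryo was above every later one. The means rest on 9 to 16 cells per embryo at E9.5, but on only 4, 4 and 5 cells in the later embryos. The slope was -2.34 per day (SE 0.33, adjusted p = 5.33e-05), beside 1.23% of all genes in liver, and -1.45 (adjusted p = 0.0321) in the HiSeq 4000 embryos alone, which keep 1 embryo at E9.5. Leaving out 1 embryo gave slopes between -3.20 and -1.95, all called. The summed epithelial markers of liver Epi cells moved the same way, from 17.47 to 22.34 at E9.5 to between 15.98 and 17.50 later, and Epcam, which binds claudins, had a slope of -1.69 (adjusted p = 2.55e-05). Hematopoietic markers were 8.85 to 9.97 at E10.5 and E11.5, and 1.18, 5.72 and 8.46 in E9.5 embryos 1, 2 and 3. In the thinned cells the slope of Cldn6 was -2.20.

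In skin Epi cells Cldn6 was 6.37 and 4.78 at E9.5, 5.11 and 4.39 at E10.5, and 2.58 and 3.05 at E11.5. The E11.5 embryos lay below all others, while E9.5 and E10.5 overlapped. The slope was -1.38 per day (SE 0.30, adjusted p = 0.00920), beside 1.71% of all genes in skin. The call was lost without E11.5 embryo 1 (-1.20, adjusted p = 0.147), without E9.5 embryo 2 (-1.12, adjusted p = 0.209) and in edgeR on summed UMIs (-0.92, adjusted p = 0.0974). The HiSeq 4000 embryos alone gave -1.12 (adjusted p = 0.0386). The summed epithelial markers of these cells were 27.99 to 28.91 at E9.5 and E10.5 and 24.14 to 24.50 at E11.5.

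In lung Epi cells Cldn10 was at 0.00 in both embryos at E9.5, at 0.00 and 0.32 at E10.5, and at 2.22 and 3.02 at E11.5. It was counted in 66.7% of the cells of each E11.5 embryo, of which 1 had 3 cells only. The E11.5 embryos were above all others, with a slope of 1.31 per day (SE 0.16, adjusted p = 3.67e-05), beside 0.763% of all genes in lung. The slope kept its call in the HiSeq 4000 embryos (1.47, adjusted p = 0.000331), and edgeR on summed UMIs did not call it (5.25, adjusted p = 0.120).

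The slopes of these members differed from those of the other organs. Of 40 differences of slopes, 2 were called, beside 0.845% of the results over all genes. Cldn10 rose faster in lung by 1.35 per day (SE 0.19, adjusted p = 0.000448). Cldn6 changed by -1.76 per day more in liver than in the other organs (SE 0.37, adjusted p = 0.00940). Without E9.5 embryo 1 the latter was -1.38 (adjusted p = 0.0643), and in the HiSeq 4000 embryos -1.05 (adjusted p = 0.366). For Cldn10 edgeR gave 7.16 with an adjusted p of 1.0. In intestine Cldn6 stood at 7.06 to 7.24 at E9.5 and at 6.52 to 6.75 later, with a slope of -0.26 (SE 0.27, adjusted p = 0.919), and in lung its slope was -0.08 (SE 0.30).

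Among the slopes not called, Cldn9 stood at 1.91, 0.91 and 2.30 in the intestine embryos at E9.5 and at 0.04, 0.05, 0.24 and 0.29 later. The groups did not overlap, but the slope of -0.78 (SE 0.24) had an adjusted p of 0.108 and passed the threshold without E9.5 embryo 2 (-0.92, adjusted p = 0.0264). In lung Cldn9 was 3.37 and 2.36 at E9.5 and 0.68 to 1.63 later, with a slope of -0.75 (SE 0.26, adjusted p = 0.192). Cldn3 in skin had a slope of -0.85 (SE 0.26, adjusted p = 0.0877), and the E11.5 embryos, at 0.62 and 0.57, were below all others. This skin slope was called in the thinned cells (-0.97, adjusted p = 0.0345) and on log2(TPM + 1) (-1.69, adjusted p = 0.0129). It was -1.13 without E9.5 embryo 3. The slope of Cldn7 in intestine was 0.48 (SE 0.25, adjusted p = 0.537), with 4.76 to 5.09 at E9.5 and 5.83 and 5.92 at E11.5. In liver, edgeR on summed UMIs with TMM called falling slopes of Cldn7 (-1.84, adjusted p = 0.0142) and Cldn3 (-6.47, adjusted p = 0.00777). The main fit called neither, and Cldn3 was near 0 in liver (0.17 ± 0.25). Without E9.5 embryo 3, limma also called the liver slope of Cldn7 (-1.19).

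**Figure D3:**
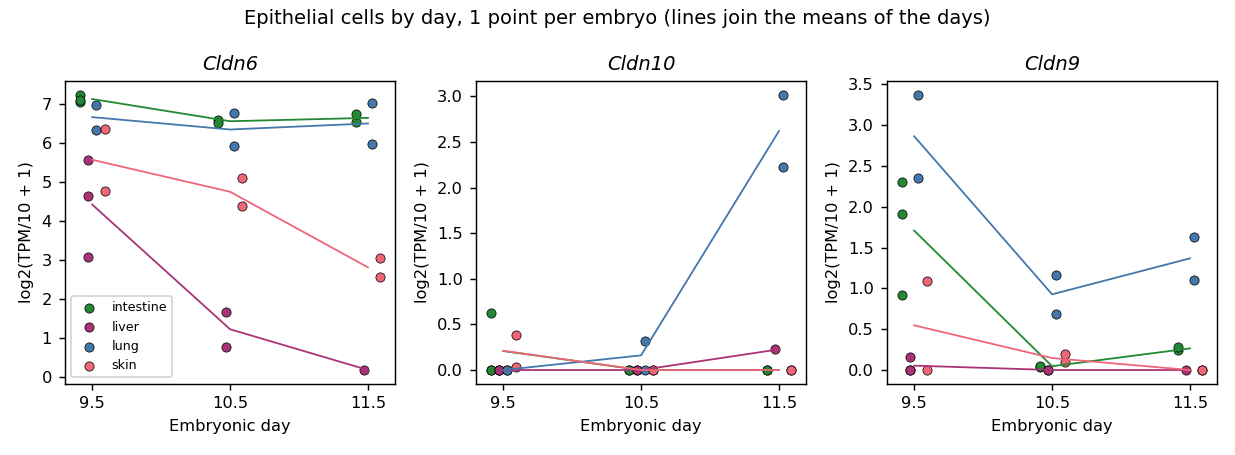
Levels of Cldn6, Cldn10 and Cldn9 in Epi cells against embryonic day, 1 point per embryo coloured by organ, with lines through the means of each day and log2(TPM/10 + 1) on the vertical axes. Cldn6 stays between 5.93 and 7.24 in intestine and lung and ends at 0.18 in liver, and Cldn10 leaves 0.32 or less in lung for 2.22 and 3.02 at E11.5.

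Single Epi cells held several claudins at once. With each cell thinned to 100000 UMIs, epithelial cells held 4.32 ± 0.236 of the 10 claudins (SD, n = 7 embryos), and 4.67 before thinning. Mesoderm-derived cells held 1.11 ± 0.139 and neuronal cells 0.790 ± 0.321. Hematopoietic cells, which form no tight junctions and here give the background, held 0.292 ± 0.344. Most of them, 168 of 230, were from liver, and this background varied with the organ sampled. Averaged over cells, it was 0.274 in liver, 0.875 in the 8 cells of skin and 0.143 in the 7 of lung. By organ, Epi cells held 5.07 ± 0.643 in lung, 4.80 ± 0.616 in skin, 4.62 ± 0.505 in intestine and 2.54 ± 0.946 in liver. The share of cells with at least 3 claudins was 99.0% in intestine, 96.9% in skin, 95.7% in lung and 59.6% in liver, against 0.435% of hematopoietic cells. Thinning left out 37 of 307 epithelial and 19 of 249 hematopoietic cells.

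The pairs detected together followed the organs. Cldn6 and Cldn7 were both counted in 100% of 99 intestine, 97.8% of 46 lung, 84.6% of 65 skin and 44.7% of 47 liver Epi cells. Taken singly, with or without the other, Cldn6 was counted in 80.9% of liver Epi cells and Cldn7 in 46.8%. In hematopoietic cells these shares were 6.09% and 4.35%. Cldn3 and Cldn4 met in 81.8% of intestine, 63.0% of lung, 44.6% of skin and 4.26% of liver Epi cells. In skin, where Cldn4 was counted in 87.7% of the cells, Cldn3 was counted in 46.2%. Cldn7 and Cldn11 met in 69.2% of skin cells and 19.2% of intestine cells.

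**Figure D4:**
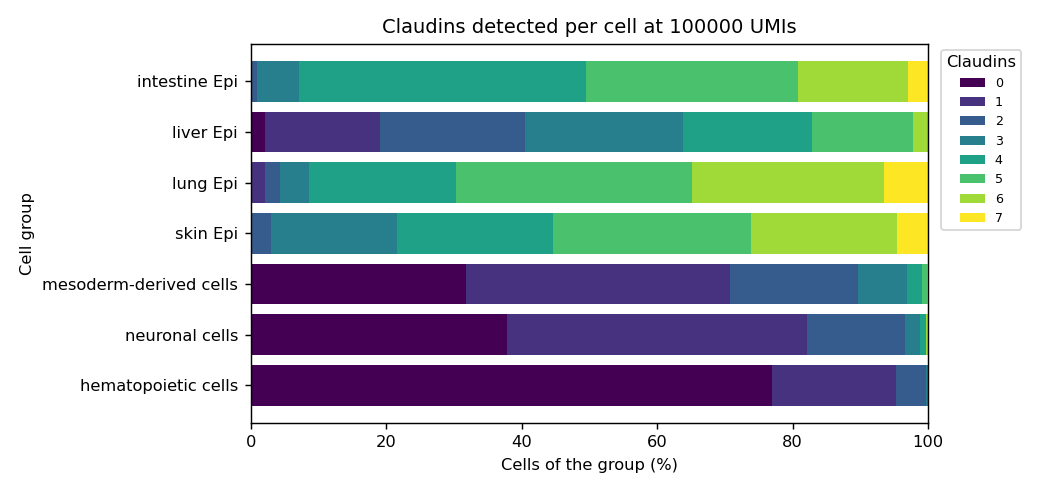
Share of cells (horizontal axis, percent) that held 0 to 7 of the 10 claudins after thinning to 100000 UMIs, for the Epi cells of 4 organs and for the other major groups; each colour is a number of claudins. Cells with at least 3 claudins make up 99.0% of intestine Epi cells and 59.6% of liver Epi cells, and 77.0% of hematopoietic cells hold none.

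Cldn5, the endothelial claudin, was counted mostly outside epithelium. Of the mesoderm-derived cells, 32 expressed at least 3 of 6 endothelial markers (Pecam1, Cdh5, Kdr, Tie1, Emcn and Esam), 24 of them from heart, and 9 expressed Cldn5. Of the other 843 mesoderm-derived cells 15 expressed it. By the number of these markers, over all kept cells, Cldn5 was expressed by 35 of 1542 cells with 0 markers, 9 of 203 with 1, 5 of 33 with 2, 1 of 15 with 3, 1 of 7 with 4, 2 of 8 with 5 and 6 of 11 with all 6. By organ, Cldn5 was expressed by 2 of the 24 heart cells with these markers (mean level 0.24) and by all 3 of lung (6.29), both of liver (4.45) and the single cells of hindbrain (8.04) and somite (5.03). These are cells of few embryos and carry no test. Only 2 embryos had at least 3 such cells. In liver Epi cells, 1 cell held 94.5% of the 944 Cldn5 UMIs.

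Hindbrain neuronal cells also expressed Cldn5. In the 6 embryos with brain cells, the level in hindbrain was 0.52 and 0.00 at E9.5, 0.75 and 0.83 at E10.5, and 0.24 and 0.06 at E11.5, against 0.00 to 0.02 in forebrain. Of 185 hindbrain neuronal cells 28 expressed it, 7 of 43 and 0 of 32 at E9.5, 7 of 30 and 11 of 28 at E10.5, and 2 of 27 and 1 of 25 at E11.5, while 0 of 184 forebrain neuronal cells did, and those held 1 UMI in all. The difference of forebrain from hindbrain was -0.40 (SE 0.12, adjusted p = 0.130), which was not called. None of the 9 members tested was called between forebrain and hindbrain by limma, beside 0.606% of all genes, while 2 had an unadjusted p under 0.05, and edgeR on summed UMIs called 1, Cldn5 (-7.50, adjusted p = 0.0314). Of the endothelial markers, Pecam1 was expressed by 2 of the 28 cells (mean level 0.17, against 0.04 in the 157 hindbrain neuronal cells without Cldn5), Esam by 1 and Cdh5, Kdr, Tie1 and Emcn by 0. Of the neuronal and progenitor markers, Tubb3 was expressed by 28 of these cells, Nes by 22, Dcx by 19, Sox2 by 14 and Pax6 by 12, and Tubb3 also by 154 of the 157 cells without Cldn5. Over the hindbrain embryos the summed level of the 6 endothelial markers moved with Cldn5: it was 0.49 in E9.5 embryo 1 and 0.81 and 0.75 at E10.5, and 0.13, 0.07 and 0.00 in the 3 embryos with the lowest Cldn5. Its part in the Cldn5 level was not tested. A single hindbrain mesoderm-derived cell of E10.5 embryo 2 held 2686 Cldn5 UMIs, in the sample shared by both E10.5 embryos. The 185 hindbrain neuronal cells held 368 in all. Of these, 79 and 73 were from the E10.5 embryos and 177 from E9.5 embryo 1, which was another sample. Carry-over from that single cell was not tested.

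**Figure D5:**
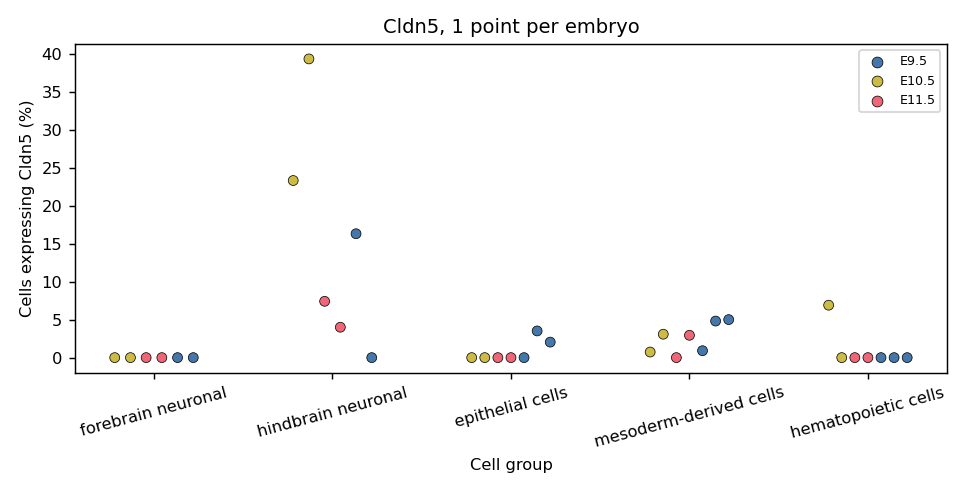
Share of cells that expressed Cldn5 (vertical axis, percent) in forebrain and hindbrain neuronal cells and in the other 3 major groups, 1 point per embryo coloured by day. Hindbrain reaches 39.3% in an E10.5 embryo and holds 0 in E9.5 embryo 2, and forebrain is at 0 in all 6 embryos.

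The other members were low in neuronal cells apart from Cldn12, which stood at 0.76 ± 0.31 in forebrain and 0.75 ± 0.30 in hindbrain (n = 6), each with 0.83 or less as median. Slopes on day in neuronal cells gave 0 of 18 called by limma, beside 7.96% over all genes, with 4 at an unadjusted p under 0.05 and a lowest adjusted p of 0.0716. There edgeR called 1, Cldn3 in forebrain (-6.99, adjusted p = 0.0304). Cldn3 in forebrain rested on E9.5 embryo 1 (0.71), with at most 0.05 in the other 5. Between Mes cells of the 4 organs 0 of 40 results were called by limma, beside 1.42% over all genes. There 4 had an unadjusted p under 0.05, the lowest adjusted p was 0.147, and edgeR called 4 with TMM (Cldn6 higher in intestine by 1.69, Cldn4 lower in liver and higher in skin, and Cldn5 higher in liver) and 5 with RLE scaling.

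Other genes of the family and of the junction were read from lists of names. Of the 22 other claudin rows, 11 held no UMI in kept cells, and 4 reached a mean of 1 in some set. Cldn18, a claudin of lung and stomach, stood at 2.22 ± 1.08 in lung Epi cells and was higher there by 2.18 (SE 0.20, adjusted p = 1.40e-11), with a slope of 0.91 per day (SE 0.19, adjusted p = 0.0122). Cldn8 (2.08 ± 0.71) and Cldn23 (1.58 ± 0.79) were higher in intestine Epi cells, by 1.54 (adjusted p = 8.95e-07) and 1.08 (adjusted p = 2.55e-05). Both were lower in liver (-1.23 and -1.02). Cldn23 was nearly as high in skin Epi cells (1.43 ± 0.80), which overlapped with intestine, and stood at 0.06 ± 0.12 in lung. Cldn13 was the claudin of hematopoietic cells, with 2.08 ± 1.35 (n = 5) in those of liver, where the 10 members were near 0.

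Of the listed tight junction partners, 23 were tested in Epi cells. In liver 0 were higher and 4 lower: Epcam (-3.22, SE 0.29, adjusted p = 1.73e-12), the polarity protein Crb3 (-2.26), the scaffold Cgnl1 (-1.37) and the adhesion molecule F11r (-1.07), where 2.41% of all genes were lower. In intestine 4 were higher and 0 lower, namely Epcam (1.99), F11r (1.88), Crb3 (1.37) and occludin (Ocln, 1.29), beside 1.26% of all genes higher. In lung 3 were higher (Crb3 and Epcam, both 1.44, and Cgnl1, 1.06) and 0 lower, beside 0.813% of all genes higher. Skin had 1 higher, the polarity kinase Prkci (1.03), and 0 lower, a share near the 2.79% of all genes higher there. The median difference of the partners was -0.37 in liver, 0.14 in intestine, -0.05 in lung and 0.07 in skin. Tjp1 and the other partners not named were not called in these contrasts. Of 13 epithelial regulators, Grhl2 (-1.23, SE 0.15, adjusted p = 1.48e-08) and the splicing factor Esrp1 (-1.56), which is also 1 of the epithelial markers, were lower in liver, and Hnf4a was higher there (2.21) and lower in lung and skin (both -1.01). The intestinal factor Cdx2 was higher in intestine (1.64) and the epidermal factor Trp63 in skin (2.70).

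The genes whose means were most like those of each member over 22 sets of organ and major group are given by Pearson's r. These sets share libraries, embryos and depth, and the r are a description. Cldn6 was most like Smim22 (0.991), Crb3 (0.989) and Epcam (0.985), and Cldn7 like Ap1m2 (0.988), Prss8 (0.988) and Kdf1 (0.985). Cldn4 was most like Eps8l2 (0.982), Cldn3 like Entpd3 (0.957) and the chloride channel Cftr (0.948), and Cldn9 like Myo5c (0.957). Cldn11 was most like Gm26688 (0.969) and the ectodermal factors Dlx3 (0.962) and Tfap2a (0.958). Cldn10 was like H2-T10 (0.978) and the surfactant genes Sftpc (0.961) and Sftpb (0.960). Cldn12 (Gcat, 0.942) and Cldn1 (Aldh4a1, 0.882) had the weakest matches. For Cldn5 the nearest gene was Npffr1 (0.986), which rested on a set of 3 hindbrain mesoderm-derived cells.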

How the data were processed

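Single cells of dissected organs of 7 mouse embryos were profiled by the authors with a modified STRT protocol in which reverse transcription adds a UMI and a barcode for the cell, and which enriches 3′ fragments. Per the methods and the submitters' processing notes (CASAVA 1.8, TopHat 2.0.12, mm10), htseq-count assigned reads with 1 mapped position to genes and repeats of a UMI were collapsed. The version of HTSeq and its annotation are not given in the sources used here. The sample labels describe a sort and a related amplification protocol for gonadal cells, which differs from the methods. The deposited values, named TPM by the authors, are CPM (counts of UMIs scaled to 1000000 in each cell) with 2 decimals and no gene length. Values times the UMI total of the cell came out whole (within 0.05 UMIs) in 100% of nonzero values, and totals equalled the authors' cell table in 1916 cells.

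The 1819 cells that the study kept were used with its major groups and Epi or Mes names. Doublets were not called, since cells were picked singly by mouth pipette. Embryo means of log2(TPM/10 + 1) over at least 3 cells were compared, for genes expressed in at least 3 of the cells compared, with limma 3.58.1 in R 4.3.3 (trend), with Benjamini-Hochberg adjustment within a contrast. The tests are two-sided. Calls needed an adjusted p under 0.05 and a difference of at least 1 or a slope of at least 0.5 per day. A fold change on this scale understates that of low genes. E11.5 embryo 1 had under 3 liver Epi cells, and E9.5 embryo 1 had no lung or skin sample. The scripts were tested on simulated data. All members are described, and most alike genes were the 3 with the highest Pearson's r. Some genes are not reported here and were left out of the lists and of the most alike genes. The members and lists were chosen with earlier results of these data known. Alternatives were another pseudocount, filters, thinned cells, HiSeq 4000 embryos, each embryo left out, the embryo as a block, and edgeR 4.0.16 on summed UMI counts as recovered from the deposited values.

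Organs with the same embryo number come from the same animal. Over all genes, deviations of sets of the same embryo correlated with a median r of 0.101 (-0.104 to 0.472, 140 pairs) in Epi and Mes cells, against -0.0177 for other embryos, and of 0.413 (6 pairs) between forebrain and hindbrain, against -0.0876. Limits given for counts of 0 (3 counts) cover counting error only.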

Additional observations from a re-analysis of the deposited data

Results flagged for a closer look

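In 35 sets where an embryo mean of a member reached 0.5, 5 held 1 embryo far from the others of its set by Dixon's criterion, which chance meets in about 1 of 20 groups. Cldn3 in forebrain neuronal cells stood at 0.71 in E9.5 embryo 1, where the median of the 6 embryos was 0.00. Cldn10 in intestine Epi cells stood at 0.62 in E9.5 embryo 1, with a median of 0.00 over 7. Cldn9 in skin Epi cells was 1.10 in E9.5 embryo 2, the deepest embryo, with a median of 0.05. Cldn1 in skin Epi cells was 1.02 in E11.5 embryo 1, with a median of 0.09. Cldn12 in hindbrain neuronal cells was low, at 0.16, in E11.5 embryo 2, with a median of 0.83.

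The change with day differed between organs for 2 members, by the test of the difference of slopes: -1.76 per day for Cldn6 in liver and 1.35 per day for Cldn10 in lung.

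Of the kept cells without a major group, which enter no comparison by major group, a lung cell of E10.5 embryo 1 held Cldn6 at 5.92, Cldn7 at 5.30, Cldn3 at 3.77 and Cldn9 at 2.51. A skin cell of the same embryo held Cldn7 at 4.29, Cldn6 at 3.36 and Cldn4 at 2.66. These levels are above those of the highest hematopoietic cell, the background used here.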

How the results depend on the processing

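Of 19 named results, 12 were called under every alternative. Over their 304 alternative values, 285 kept direction and call, 19 kept direction and lost the call, and 0 were reversed. With log2(TPM + 1) in place of log2(TPM/10 + 1), which weights low levels more, the called results rose from 14 to 23 between organs in Epi cells, from 0 to 1 in Mes cells, from 2 to 4 for differences of slopes and from 0 to 1 for neuronal slopes. In edgeR on summed UMIs the counts were 4 (TMM) and 5 (RLE) in Mes cells, 5 (TMM) for differences of slopes, and 1 with TMM and with RLE both for forebrain against hindbrain and for neuronal slopes. The HiSeq 4000 embryos alone gave 1 difference of slopes. Claudins per epithelial cell were 4.67 as deposited and 4.32 after thinning. Causes of these shifts were not tested.

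Leaving out each embryo in turn gave 14 to 15 calls between organs, 2 to 5 slopes (5 without E9.5 embryo 3), 1 to 3 differences of slopes (1 without E9.5 embryo 1), and 0 in Mes and neuronal cells. With the embryo as a replicate block, the fit gave 14 calls between organs, 3 slopes and 2 differences of slopes, and it changed no call of a named result. Depth per cell limits what a level near 0 can show, and days with 1 or 2 embryos limit the slopes.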
